A study of Drosophila melanogaster with 8 samples.

Results

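The DEAD and DEAH box RNA helicases were followed in macrophages of Drosophila melanogaster embryos, with CG9253 (porthos) placed among its relatives. Of 34 gene names, 31 were rows of the deposited expression tables, out of 17494 genes. Another 3 names were not found as symbols. RefSeq lists CG10777 as mahe and CG10689 as l(2)37Cb, which are both among the 31, and CG11107 as Dhx15, which stood in the tables under that symbol and was kept out of the counts. The 31 genes comprise 24 of the DEAD box type and 7 of the DEAH box type. The family of eIF4A and the helicase mle were not included.

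The samples were macrophages (hemocytes, the phagocytic blood cells) sorted as mCherry-positive cells from embryos that were collected at 29°C, at stage 11 for both genotypes. There were 4 wild type (WT) libraries and 4 libraries of the CG9005 mutant. The genotype field is the same for both groups, macrophages tagged with 3xMcherry, so the genotypes come from the sample titles. The labels give neither the CG9005 allele nor the driver of the tag. A stage field in the labels counts from 11 to 18 over the libraries, against the single stage of the growth protocol. Poly(A) RNA was sequenced, and levels are in TPM, transcript numbers scaled by gene length and to the same total in each library. Levels of different genes can thus be set side by side, as far as the gene lengths used match the transcripts present.

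RNA helicases of these families use ATP to unwind short RNA duplexes or to strip proteins from RNA. The names spell, in single-letter amino acid code, a motif of the ATP-binding core. In nucleoli many of them act at single steps of ribosome assembly, others drive the spliceosome through its rearrangements, and a further group handles finished mRNA in export, translation and decay. CG9253 is the fly counterpart of human DDX47 and yeast Rrp3, which act in assembly of the small ribosomal subunit. Hemocytes of this age are migrating into tissues, and the title of the series links the genetic program under study to mitochondrial function in that invasion.

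Recovered depth was 15782570 to 18942786 reads per library. Libraries of the same genotype correlated at 0.921 to 0.960 on the log2(TPM + 1) scale and libraries of different genotypes at 0.911 to 0.940, as a description over genes that are not independent of each other. CG9005 mRNA does not separate the labels, with means of 87.8 ± 18.4 TPM (WT) and 89.1 ± 12.2 TPM (mutant; SD, n = 4 each; log2 difference 0.03, 95% interval −0.35 to 0.41, limma adjusted p = 0.973). Of 14 macrophage markers, 12 passed the filter on low values, 1 of them (Sr-CI) was called higher, and the list summed to 2885 to 3170 TPM in WT and 2866 to 3376 TPM in mutant libraries. Hml, a clotting gene, and NimC1, a phagocytosis receptor, were under 1 TPM in every library. The 10 germ cell or maternal markers summed to 39.9 to 56.0 TPM in WT and 35.4 to 48.0 TPM in mutant libraries with none called. Of these, tud (14.5 to 20.6 TPM in WT), gcl (14.5 to 24.2 TPM) and bru1 (5.77 to 8.07 TPM) were present, while vas, nos, osk and orb were under 1 TPM in every library. The 3 fat body markers were at or near 0. Markers of neurons and glia (43.7 to 76.0 and 50.7 to 66.8 TPM) and of epidermis and trachea (38.8 to 108 and 35.9 to 61.7 TPM) had none called. The 4 crystal cell markers summed to 458 to 842 TPM in WT and 418 to 544 TPM in mutant libraries, and 1 was called lower, PPO1, a prophenoloxidase, at 50.8 to 72.5 and 11.3 to 26.5 TPM. Muscle markers summed to 27.1 to 51.0 TPM in WT and 74.7 to 159 TPM in mutant libraries, with 2 of 5 tested genes (HLH54F and Mlc2) called higher. In the same list bap, not called, had 8.07 to 16.3 TPM in WT and 2.86 to 10.02 TPM in mutant libraries. The part of these other cell types in the helicase values was not tested. Since these are bulk samples, fewer cells of a type and less RNA per cell cannot be told apart.

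In WT macrophages CG9253 had the highest TPM of the 31 helicase mRNAs. Its levels were 128, 167, 144 and 137 TPM in WT replicates 1 to 4, and it ranked 1 of 31 in each of these libraries and between 599 and 724 among all genes. Its mean of 144 ± 16.8 TPM (SD, n = 4) was 12.3 times the median of the 30 relatives, which was 11.7 TPM. It lies on chromosome 2L at 21143229 to 21145146, plus strand (BDGP6), with 3 exon blocks and a union exon length of 1669 bases.

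The next helicase in the WT order was Rm62, the fly p68 protein with roles in RNA interference, splicing and chromatin. Rm62 held 102, 113, 101 and 126 TPM in the 4 WT libraries. All 4 values of CG9253 lay above all 4 of Rm62, with a ratio of means of 1.30. The following genes were bel, the DDX3 counterpart that acts in translation initiation (95.7 ± 26.6 TPM), Hel25E, the UAP56 counterpart of splicing and mRNA export (91.8 ± 21.2 TPM), and me31B, the DDX6 counterpart of P bodies and translational repression (64.9 ± 18.5 TPM). CG7878, pit and abs came next, at 62.3, 53.6 and 51.5 TPM, and they closed the set of 8 members above 50 TPM. The order rests on division by union exon length, 1669 bases for CG9253, 5386 for Rm62 and 3970 for bel. In mean WT reads Rm62 (7656) and bel (4792) stood above CG9253 (3086). The first place of CG9253 therefore depends on these lengths, and the isoforms present were not examined.

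The lower end of the order was set by the germline helicases. The mean of spn-E, a piRNA pathway helicase, was 0.568 TPM in WT, and vas, the helicase of germ plasm and germ cells, was listed at 0 in 3 of the 4 WT libraries and at 0.331 TPM in replicate 1. CG14443 was listed at 0 in WT replicates 1 and 2 and reached 0.667 and 0.876 TPM in replicates 3 and 4. These 3 members did not pass the filter of 1 TPM in 4 libraries and were not tested. Their mean WT read numbers were 33.8 for spn-E, 10 for CG14443 and 2.75 for vas. Between those extremes the order was mostly a continuum. Of 30 neighbouring pairs in the WT order, 28 had overlapping values in the 4 libraries, and the gaps were between CG9253 and Rm62 and between CG3225 and spn-E. Compared within each library, Hel25E lay above me31B and CG7878 above pit in all 4, although their ranges overlapped. The other overlapping pairs kept their order in 1 to 3 libraries.

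**Figure D1:**
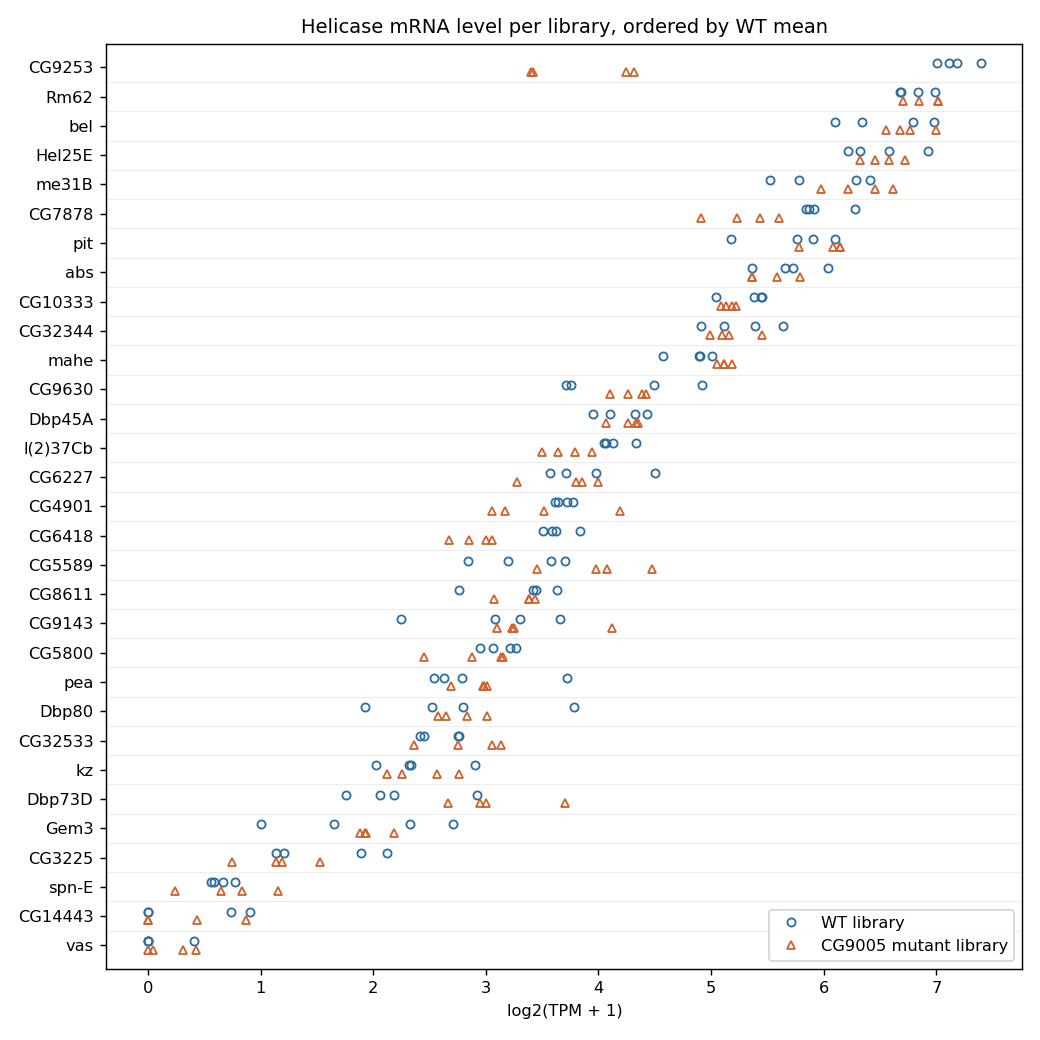
Each point is 1 library, on a log2(TPM + 1) axis, for the 31 helicases ordered from the highest to the lowest WT mean; circles are WT and triangles CG9005 mutant libraries. CG9253 leads in WT at 128 to 167 TPM, and its mutant values lie at 9.57 to 18.9 TPM, while most other genes overlap between the groups.

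CG9253 fell in the mutant. Its mutant levels were 9.57, 9.70, 18.9 and 17.9 TPM in replicates 1 to 4, a mean of 14.0 ± 5.09 TPM (SD, n = 4). The groups did not overlap, and mutant replicates 1 and 2 were lower than replicates 3 and 4. The log2(TPM + 1) difference was −3.33 (SE 0.24, 95% interval −3.85 to −2.81, limma adjusted p = 5.93e-05), which left 9.74% of the WT level. A two-sided exact permutation test gave p = 0.0286, the smallest that 70 assignments allow. This fall was known from earlier results of the same libraries, so it is given here as the base for the comparison with the relatives. A mean of 316.5 reads per library remained in the mutant, against 3086 in WT.

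With this fall CG9253 went from the top of the family to the middle. It ranked 17, 16, 12 and 12 of 31 in the mutant libraries, and 14 by the mutant mean. CG9253 supplied 15.4 ± 0.956% of the summed TPM of all 31 helicases in WT and 1.72 ± 0.645% in the mutant (SD, n = 4 each). Rm62 took the first place in the mutant, at 118 ± 12.0 TPM, followed by bel at 107 ± 14.3 TPM.

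The gene shares its locus with other annotated genes. On the opposite strand it overlaps del, which held 0.232 ± 0.344 TPM in WT and 0.341 ± 0.291 TPM in mutant libraries. An 88 base snoRNA, snoRNA:Me18S-A469, lies on its own strand between exons. The snoRNA had 22, 0, 3 and 17 reads in the WT libraries and 0, 0, 0 and 10 in the mutant libraries. The level of del and the reads of the snoRNA were thus small beside the 2606 to 3796 CG9253 reads of each WT library. Of 30 members placed in the annotation, 12 overlap another gene, 10 of them on the opposite strand, and the strand setting of the counting is not given in the sources used here. Opposite-strand neighbours with a higher WT mean than the member included CG8080 (120 TPM) at Dbp45A and CG13018 (59.6 TPM) at pea. Those of CG9253, Dbp80, CG32533 and CG3225 had a lower mean. How many neighbour reads enter the members was not tested.

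No relative of CG9253 was called higher in the mutant. Of 27 relatives that passed the filter, 0 were called in either direction at a limma adjusted p under 0.05. Over all 7827 tested genes 1.67% were called, 0.882% higher and 0.792% lower, so a count of 0 among 27 genes is near the background. At an unadjusted limma p under 0.05 there were 4 relatives, 2 above and 2 below 0, against 12.1% of all tested genes, 5.46% higher and 6.68% lower. Voom, limma's count-scale model on the recovered reads, called none of the relatives either (CG9143, which has no annotated length, could not be fitted there).

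The intervals say what size of rise these libraries leave possible. For 24 of the 27 relatives the upper 95% limit was under 1 on the log2(TPM + 1) scale, that is, under a doubling of TPM + 1. For the other 3, Dbp73D, CG5589 and CG9143, it was 1.58, 1.29 and 1.11. Over all tested genes 20.5% had an upper limit of 1 or more. These limits are per gene and not adjusted for the number of genes, and for genes at a few TPM the added 1 makes them too small. Standard errors ran from 0.14 for Rm62 to 0.38 for Gem3. The median log2 difference of the relatives was 0.01, against −0.06 over all tested genes, and 16 of 27 (59.3%) lay above 0, against 41.7% of all tested genes. Of those above 0, CG8611, Hel25E, Dbp80, kz, Dbp45A and Gem3 lay at only 0.003 to 0.059. These genes, CG9630 and CG32533 changed sign in other settings, as did CG32344, CG4901 and pea from below 0. Mean TPM was lower in the mutant for CG8611, CG9630, Dbp80, Gem3 and Hel25E.

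Summed over the 30 relatives, WT libraries held 657, 871, 829 and 823 TPM and mutant libraries 819, 809, 869 and 726 TPM. The means were 795 ± 94.3 TPM (WT) and 806 ± 59.2 TPM (mutant; SD, n = 4 each), and the groups overlapped over most of their range. The difference of 10.8 TPM was smaller than either SD, while CG9253 alone lost 130 TPM. Leaving out 1 library at a time moved that difference between −35.1 and 37.3 TPM, and it was below 0 without WT replicate 1 (−35.1) or mutant replicate 3 (−10.3). With the 20 most abundant genes taken out of the total, the difference was 40.7 TPM, or 3.74% of the WT sum on that scale, still under either SD. The sum over all 31 helicases therefore went from 939 ± 108 to 820 ± 59.1 TPM. TPM values share a fixed total, so these are shares of the transcript pool and not molecules per cell.

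**Figure D2:**
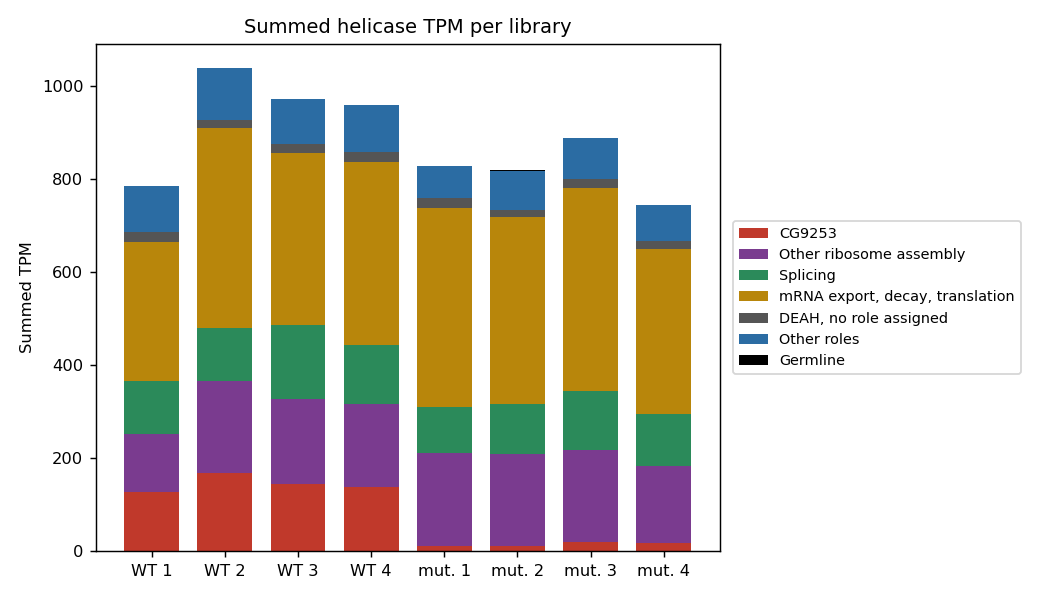
Stacked bars give the summed TPM of the 31 helicases in each library, coloured by role, with CG9253 at the base. The CG9253 segment shrinks from a mean of 144 TPM in WT to 14.0 TPM in the mutant, and the relatives together hold 657 to 871 TPM in WT and 726 to 869 TPM in mutant libraries.

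The ribosome assembly helicases are the members closest to CG9253 in role, and 11 of the 31 belong to this group. Apart from CG9253 none was called. In WT CG9253 was 2.69 times as abundant as pit, the next of the group, and made up 46.0 ± 3.32% of the group's TPM, against 6.94 ± 2.76% in the mutant (SD, n = 4 each). The other 10 summed to 171 ± 32.5 TPM against 191 ± 18.0 TPM in mutant libraries. That difference of 20.1 TPM was smaller than the WT SD and was 15.5% of the TPM that CG9253 lost. Without WT replicate 1, the lowest library of the group, it was 4.38 TPM, or 3.37% of that loss.

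The 2 relatives with the highest log2 differences were both ribosome assembly helicases. Dbp73D, the counterpart of yeast Dbp6 of the large subunit, had 3.18, 3.56, 6.59 and 2.37 TPM in WT and 6.98, 6.70, 12.0 and 5.34 TPM in mutant libraries. All 4 mutant libraries exceeded 3 of the WT libraries, and the groups overlapped at WT replicate 3 alone. Its log2 difference was 0.85 (SE 0.33, 95% interval 0.11 to 1.58), with an unadjusted p of 0.0282 and a limma adjusted p of 0.335, on means of 108 reads in WT and 230 in the mutant.

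CG5589, the counterpart of yeast Rok1 of the small subunit, had 6.15, 10.9, 12.0 and 8.18 TPM in WT and 21.3, 14.7, 15.9 and 9.99 TPM in mutant libraries. Mutant replicates 1 to 3 lay above every WT library and replicate 4 fell inside the WT range. The log2 difference was 0.67 (SE 0.28, 95% interval 0.05 to 1.29), with an unadjusted limma p of 0.0375 and an adjusted p of 0.366. Neither Dbp73D nor CG5589 was called under the alternatives fitted to them, with limma adjusted p from 0.169 to 0.692 and from 0.281 to 0.610.

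Pitchoune (pit), the counterpart of DDX18 and yeast Has1, needed for larval growth, held 35.1, 67.4, 53.2 and 58.9 TPM in WT and 69.7, 69.9, 66.9 and 53.9 TPM in mutant libraries. Mutant replicates 1 and 2 lay just above the highest WT value and replicates 3 and 4 within the WT range (log2 difference 0.31, 95% interval −0.15 to 0.76, limma adjusted p = 0.622). CG9143 had 3.76 to 11.6 TPM in WT and 7.55 to 16.4 TPM in mutant libraries (log2 difference 0.35, limma adjusted p = 0.757). Its highest value came from mutant replicate 1 and its lowest from WT replicate 1, and without these libraries in turn the log2 difference was 0.12 and 0.08.

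CG32344, the counterpart of yeast Dbp10, was the third most abundant ribosome assembly helicase in WT, at 38.1 ± 8.66 TPM, and had 35.3 ± 5.19 TPM in the mutant. CG9630, the counterpart of yeast Spb4, had 18.9 ± 8.20 and 18.7 ± 1.93 TPM, and Dbp45A, that of Dbp8, had 17.6 ± 2.79 and 18.1 ± 1.65 TPM. CG8611, the DDX31 counterpart, had 9.21 and 9.03 TPM and CG5800, that of DDX10, 7.75 and 6.62 TPM. The DEAH helicase kz (kurz), of the small subunit, was at 4.39 and 4.46 TPM. For these 6 genes the log2 differences lay between −0.22 and 0.07, with limma adjusted p between 0.803 and 0.998. The widest of their intervals, that of kz, ran from −0.62 to 0.68.

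**Figure D3:**
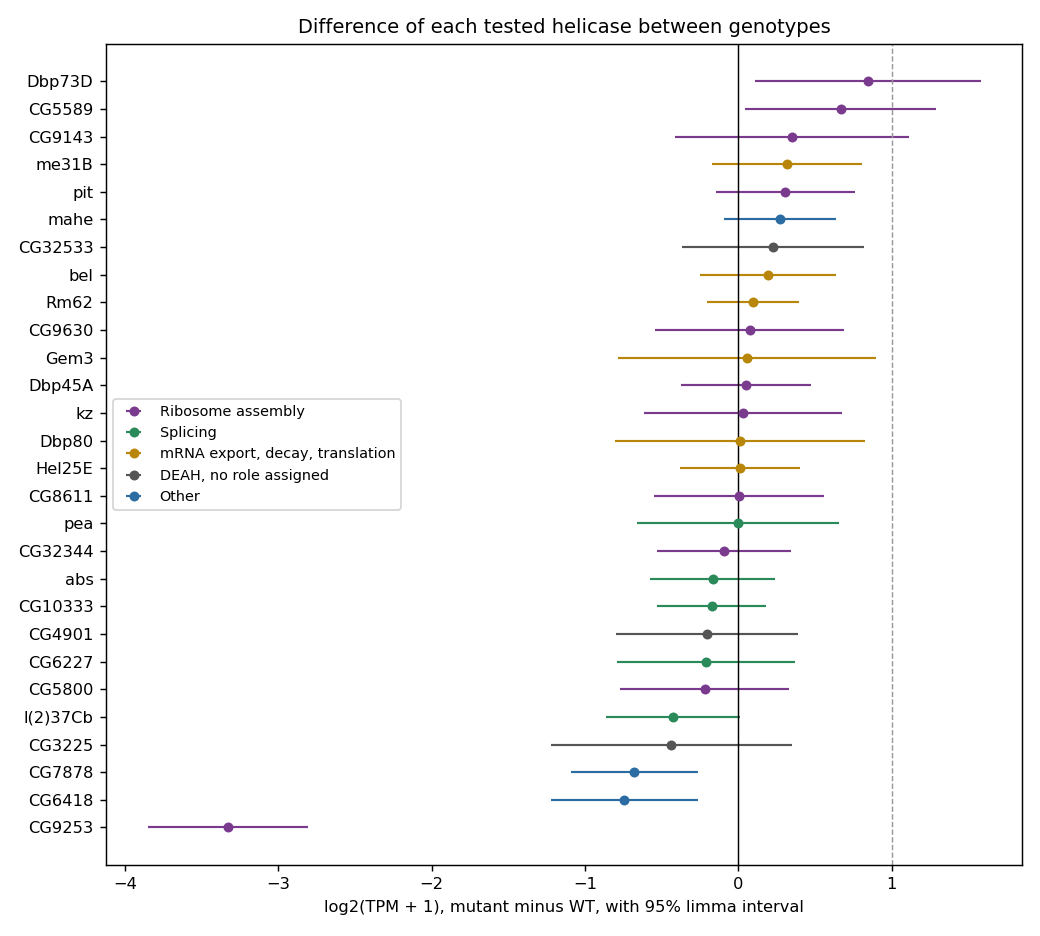
Points are log2(TPM + 1) differences, mutant minus WT, for the 28 tested helicases with 95% limma intervals, coloured by role. The solid line marks 0 and the dashed line 1, a doubling of TPM + 1. Only CG9253 lies apart from the rest, at −3.33, and the 3 upper limits past the dashed line belong to Dbp73D, CG5589 and CG9143.

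All 5 tested splicing members had log2 differences below 0, and none was called. That of pea, −0.00, was above 0 with quantile normalization, median centring and voom. Dhx15, planned for this group as CG11107 but kept out of the counts, had a log2 difference of 0.10. Over all tested genes 41.7% lay above 0, so most lay below. The 5 members summed to 130 ± 21.1 TPM (WT) and 111 ± 12.4 TPM (mutant), with overlapping groups. Their difference of −18.2 TPM was −8.08 TPM without WT replicate 3. The DEAH helicase l(2)37Cb, the Prp2 counterpart that readies the spliceosome for the first splicing step, had 16.5, 15.8, 19.2 and 15.6 TPM in WT and 10.3, 11.5, 14.4 and 12.8 TPM in mutant libraries. Every mutant library was below every WT library, yet the log2 difference of −0.43 (95% interval −0.86 to 0.01) was not called (limma adjusted p = 0.422). CG10333, the Prp28 counterpart, was at 39.5 and 34.6 TPM, and abs (abstrakt, the DDX41 counterpart) at 51.5 and 45.4 TPM. CG6227, the Prp5 counterpart, had 14.9 ± 4.80 and 12.5 ± 2.67 TPM, and pea, the Prp22 counterpart that releases spliced mRNA, 7.01 ± 3.46 and 6.58 ± 0.742 TPM. WT replicate 3 held 12.2 TPM of pea against 4.80 to 5.90 TPM in the other WT libraries, and without it the log2 difference was 0.26 instead of −0.00. Leaving out mutant replicate 1 gave 0.072.

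Helicases of mRNA export, decay and translation, with which Rm62 and Gem3 were grouped, held the largest share of the family. All 6 had log2 differences above 0, against 41.7% of all tested genes, and none was called. For Hel25E, Dbp80 and Gem3 the log2 difference was below 0 in other settings, and their mean TPM was lower in the mutant. The summed levels of the 6 genes were 373 ± 55.3 TPM (WT) and 405 ± 36.7 TPM (mutant), a difference of 32.3 TPM. That difference was 7.78 TPM without WT replicate 1, and 51.5 TPM without WT replicate 2 or 49.1 TPM without mutant replicate 4. For me31B the libraries gave 44.9, 76.9, 54.0 and 83.9 TPM in WT and 96.8, 73.2, 86.7 and 62.0 TPM in mutant libraries. The groups overlapped from 62.0 to 83.9 TPM (log2 difference 0.32, 95% interval −0.17 to 0.81, limma adjusted p = 0.647). Belle (bel) had 67.4, 110, 125 and 80.2 TPM in WT and 102, 127, 108 and 92.9 TPM in mutant libraries (0.20, limma adjusted p = 0.767).

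Rm62 and Hel25E had the narrowest intervals of this group. Rm62 had 128, 114, 128 and 103 TPM in the mutant libraries, a log2 difference of 0.10 from WT with an interval of −0.21 to 0.40. Hel25E averaged 91.8 ± 21.2 TPM in WT and 91.2 ± 10.9 TPM in mutant libraries, with a log2 difference of 0.01 and an interval of −0.38 to 0.40. Dbp80, the DDX19 counterpart at the nuclear pore, and Gem3, the helicase of the SMN complex, were low. They were at 6.55 and 3.17 TPM in WT and 5.85 and 2.96 TPM in mutant libraries. Their WT libraries were spread by 66.0% and 63.0% of the mean. Their intervals of −0.80 to 0.82 and −0.78 to 0.90 thus allow changes near a doubling of TPM + 1, and larger ones in TPM.

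Of the remaining members, CG7878 and CG6418 had the smallest p-values of all relatives, and both were lower in the mutant without being called. CG7878, which resembles human DDX43, had 57.4, 76.4, 56.3 and 59.1 TPM in WT and 29.1, 42.2, 47.5 and 36.5 TPM in mutant libraries. The groups did not overlap, and the log2 difference was −0.68 (SE 0.19, 95% interval −1.09 to −0.27, limma adjusted p = 0.126). CG6418, which resembles DDX42, had 10.4, 11.0, 11.3 and 13.2 TPM in WT and 5.38, 7.31, 6.22 and 6.99 TPM in mutant libraries. Its mutant mean was 56.4% of WT, again with no overlap (log2 difference −0.74, SE 0.22, 95% interval −1.22 to −0.26, limma adjusted p = 0.158). CG6418 overlaps tna on the opposite strand, which averaged 134 ± 7.42 TPM in WT and 130 ± 22.3 TPM in mutant libraries. Over 19 alternatives the adjusted p of CG7878 ran from 0.0610 to 0.529 and that of CG6418 from 0.0829 to 0.460.

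The helicase mahe (maheshvara) was the 1 relative whose mutant libraries all lay above the WT libraries. It had 31.2, 22.7, 28.8 and 28.8 TPM in WT and 33.6, 35.4, 33.5 and 32.2 TPM in mutant libraries. The gap between the groups was small, from 31.2 to 32.2 TPM, and the log2 difference of 0.27 (95% interval −0.09 to 0.64) was not called (limma adjusted p = 0.576). Altogether 4 of 27 relatives (14.8%) had groups that did not overlap, 1 higher and 3 lower. Over all tested genes 7.77% did not overlap, 3.25% higher and 4.52% lower.

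The DEAH members CG4901, CG32533 and CG3225 were at 11.9, 5.09 and 2.14 TPM in WT and 10.8, 6.24 and 1.26 TPM in mutant libraries, with overlapping groups and limma adjusted p of 0.840, 0.808 and 0.700. CG4901 was even in WT, at 11.2 to 12.7 TPM, and uneven in the mutant, at 7.30 to 17.3 TPM. CG32533 overlaps mRpS14 on the same strand, at 96.1 ± 19.5 TPM in WT, so the split of reads between them is uncertain. Summed over types, DEAD members other than CG9253 held 747 ± 94.0 TPM (WT) and 764 ± 57.4 TPM (mutant), and DEAH members 47.9 ± 6.69 and 42.2 ± 2.76 TPM, with overlapping groups for both types.

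**Figure D4:**
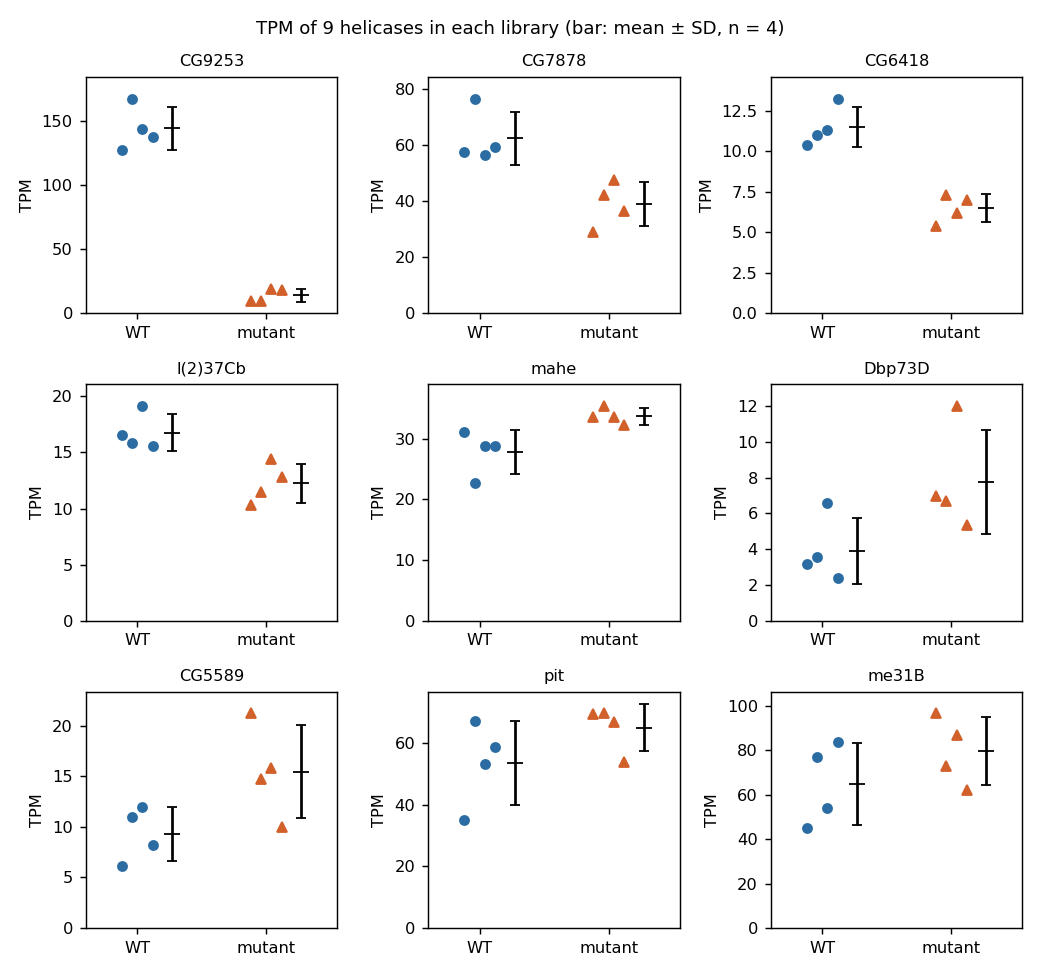
TPM of 9 helicases in the 4 WT (circles) and 4 CG9005 mutant (triangles) libraries on linear axes from 0, with the mean ± SD beside them. CG9253, CG7878, CG6418 and l(2)37Cb are lower in every mutant library and mahe is higher in every one, and only CG9253 was called.

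The spread among WT libraries was not even. Of the 27 tested relatives, 14 had their lowest WT value in replicate 1, while 10 had their highest in replicate 3 and 9 in replicate 4. For 20 of the 27 the coefficient of variation was smaller in the mutant than in WT. For CG9630 it was 43.5% in WT and 10.3% in the mutant, and for Gem3 63.0% and 13.2%. WT replicate 1 also had the lowest summed level of relatives, 657 TPM.

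None of the genes in the lists of partners of these helicases was called by limma. Over all tested genes 1.67% were called, so a count of 0 in lists this short is near the background. Nucleolar and snoRNP genes (16 tested) had 0 called and a median log2 difference of −0.07. Among them Nnp-1, a nucleolar ribosome assembly protein, was at 32.6 ± 4.68 and 23.6 ± 1.71 TPM in WT and mutant libraries (log2 difference −0.44, limma adjusted p = 0.334), and Fib, the rRNA methylase fibrillarin, at 198 ± 27.6 and 165 ± 14.5 TPM (−0.26, limma adjusted p = 0.497). Spliceosome partners (17 tested) had a median of −0.17 and 0 called, with Bx42 at 76.8 and 57.6 TPM (−0.42, limma adjusted p = 0.335) and ytr at 100 and 125 TPM (0.32, limma adjusted p = 0.346). At an unadjusted limma p under 0.05 there was 1 gene of the nucleolar list (6.25%) and 4 of the spliceosome list (23.5%), against 12.1% of all tested genes.

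P body and decay partners (12 tested) had a median of −0.05 and 0 called. Pop2, a deadenylase of the CCR4-NOT complex, had means of 11.4 ± 3.32 TPM (WT) and 20.8 ± 4.59 TPM (mutant), and LSm1, of the decapping ring, means of 58.5 ± 12.7 and 85.4 ± 9.47 TPM. In both genes every mutant library was above every WT library (log2 differences 0.83 and 0.56, limma adjusted p = 0.182 and 0.216). These were the 2 of this list (16.7%) at an unadjusted limma p under 0.05, against 12.1% of all tested genes. Export partners (14 tested) and SMN complex genes (9 tested) had medians of −0.06 and −0.00, with 0 called, lowest limma adjusted p of 0.551 and 0.313, and 0 and 1 genes at an unadjusted p under 0.05. The 1 (11.1% of its list) was SmD2, a core protein of the snRNPs, at 441 ± 49.0 and 553 ± 62.4 TPM (log2 difference 0.33). Of 15 piRNA genes 8 were tested, 0 were called by limma, also 0 at an unadjusted p under 0.05, and their WT means were at most 17.5 TPM.

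Other RNA helicases outside the set give the scale of the family. The translation factor eIF4A was at 1113 ± 275 TPM in WT, above CG9253 in every library, and at 1142 ± 192 TPM in the mutant (log2 difference 0.06, limma adjusted p = 0.956). Of 15 such genes tested, 0 were called by limma, against 1.67% of all tested genes. At an unadjusted limma p under 0.05 there were also 0, against 12.1%. The median log2 difference of these 15 genes was −0.04. The 2 lowest p-values among them belonged to CG1582, at 10.6 and 7.93 TPM, and Dcr-2, the Dicer of the siRNA pathway, at 2.45 and 1.38 TPM. In both every mutant library was below every WT library, with log2 differences of −0.38 and −0.54 and limma adjusted p of 0.512 and 0.526. Dhx15 was at 12.5 ± 1.92 and 13.6 ± 2.24 TPM, with a limma adjusted p of 0.909.

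The authors' deposited table lists all 31 members. In the authors' deposited table CG9253 has a log2 fold change of −3.35 with an adjusted p of 2.96e-06, and each of the 30 relatives has an adjusted p of 1.00. Its highest relatives are vas at 1.37 and Dbp73D at 1.12, and the lowest is CG6418 at −0.76, all in the authors' deposited table on the log2 scale. The value of vas rests on 0 to 11 recovered reads per library, and vas was not tested here. Whether the replicates are separate embryo collections is not stated, and the p-values then describe only the spread among these libraries, possibly a technical one. CG9253 and CG9005 both lie on chromosome 2, where 3.08% of 2990 tested genes were called, and 8 tested relatives are placed there with none called. The tested relative CG9143 has no position in the annotation used and is not in this count. Linkage to the mutated chromosome and an effect of the mutation on CG9253 cannot be told apart in this design.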

How the data were processed

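The submitters' processing notes name build BDGP6 and the tools limma and edgeR in R 3.4.4, HTSeq 0.5.4p3 and STAR 2.5.1b, without saying what each did. The authors deposited TPM per gene and library, each column summing to 1000000, and a comparison table with log2 fold changes and p-values. Its copies were identical, and 1 was read.

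Here the TPM columns were joined, and limma 3.58.1 (R 4.3.3) was fitted on log2(TPM + 1) with an intensity trend and genotype as the term, over the 7827 genes that reached 1 TPM in 4 or more libraries. With 1 library left out, 3 libraries had to pass. P-values were adjusted by Benjamini and Hochberg over all tested genes, and calls are at an adjusted p under 0.05. Fold changes on the log2(TPM + 1) scale understate the change of low genes. Multiplying TPM by union exon length (from the Ensembl gene models of BDGP6) gave whole multiples of 1 step, within 0.05 reads, for 98.9% to 99.1% of genes with values below 2000 reads, and so the read numbers; CG9143 has no length there. The fit was tested on simulated data.

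The genes named follow a rule (called or non-overlapping members, the smallest p-values, neighbours of CG9253 in WT, the ends of the order, up to 3 genes per partner list, and others where a role is described). The genes eIF4A and Dhx15 were added after their values were seen. The members, partner lists, markers and tests were chosen with earlier results of these data known. Other settings tried were leaving out single libraries, blocking on replicate number, the stage field as covariate, other normalizations, filters, pseudocounts, variance settings and voom. Protein sequences were not used here, so the planned comparison by sequence was not made.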

Additional observations from a re-analysis of the deposited data

Results flagged for a closer look

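In groups of 4 libraries, 6 of 56 groups examined had a library that stood further from the others than Dixon's 95% critical value allows, where chance gives about 1 in 20. CG7878 reached 76.4 TPM in WT replicate 2, and CG9143 reached 16.4 TPM in mutant replicate 1. The splicing helicase pea was at 12.2 TPM in WT replicate 3 and at 5.47 TPM in mutant replicate 1. CG8611 was at 7.41 TPM in mutant replicate 2, and Gem3 at 3.54 TPM in mutant replicate 3.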

How the results depend on the processing

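CG9253 kept its call in 19 alternatives, with a log2 difference from −4.03 to −3.002 and an adjusted p from 9.69e-07 to 0.0144. The count of members called stayed at 1 and that of relatives called higher at 0 in 19 alternatives each; at an unadjusted p, an alternative added after seeing the data, they were 5 and 2. The WT rank of CG9253 stayed at 1. Sums over role groups with 1 library left out were also added after seeing the data. The summed difference of the relatives, 10.8 TPM, was 40.7 TPM with the 20 most abundant genes taken out of the total. The number of genes called over the transcriptome, 131, was 71 to 110 with 1 library left out (72, 74 and 86 without WT replicates 1, 2 and 4, and 73 and 71 without mutant replicates 2 and 4), 52 with the replicate block, 9 with the stage covariate, 76 with no filter, 75 with the filter at 10 TPM and 950 at an unadjusted p. The causes were not tested. Same-numbered libraries did not deviate together (correlations −0.146 to 0.077, against −0.187 to 0.141 for other pairs). These correlations cannot show whether same-numbered libraries were prepared together. The replicate block changed no call among the helicases. Of 521 values for 28 genes, 49 in 12 genes changed sign, all of them uncalled.

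With the stage covariate the log2 differences of CG32533, CG4901, CG8611, CG9005, CG9630, Dbp45A, Dbp80, Gem3, Hel25E and kz were −0.15, 0.30, −0.59, −0.27, −0.074, −0.25, −0.054, −0.91, −0.0068 and −0.18. Array weights gave −0.025, −0.14, −0.058, −0.13 and 0.097 for CG8611, CG9630, Gem3, Hel25E and pea, and pseudocount 5 gave −0.0044, −0.026 and −0.0060 for CG8611, Dbp80 and Gem3. For pea, quantile normalization, median centring, pseudocount 0.1 and voom gave 0.057, 0.062, 0.0075 and 0.089. With 1 library left out, the ranges were −0.21 to 0.033 for CG32344, −0.18 to 0.11 for CG8611, −0.047 to 0.17 for CG9005, −0.096 to 0.31 for CG9630, −0.035 to 0.13 for Dbp45A, −0.27 to 0.35 for Dbp80, −0.25 to 0.32 for Gem3, −0.091 to 0.15 for Hel25E, −0.092 to 0.20 for kz and −0.13 to 0.26 for pea.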
